A study of Mus musculus with 165 samples.

Results

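The 10 genes described here encode DNA-binding subunits of NF-kB and the inhibitors and nuclear regulators that act on it. They were taken by symbol from the normalized count table, 10 of its 36255 genes: *Nfkb1*, *Nfkb2*, *Rel* and *Relb* (subunits), *Nfkbia* and *Nfkbie* (cytoplasmic IkB inhibitors), *Nfkbid*, *Nfkbiz* and *Bcl3* (nuclear IkB proteins), and *Tnfaip3* (an inhibitor of the signaling upstream). The rule that finds them uses only their names, but the genes were chosen with earlier results of these data known. All 10 were among the 17414 genes that passed the filter on low values (5 or more normalized counts in 1 or more libraries). The cells were PUER cells, a single progenitor line from Spi1-/- mice (bone marrow-derived by the labels, while the study's text also names fetal liver) that carries PU.1, the product of *Spi1*, joined to the part of the estrogen receptor that binds its ligand. PU.1 activity in these cells therefore depends on 4-hydroxytamoxifen (OHT) rather than on their own gene. Undifferentiated cells grew in IL3 (5 ng/ml) without OHT (3 libraries). Macrophage differentiation (IL3-OHT) was begun with 200 nM OHT in IL3 and was sampled at 27 time points from 1h to 168h (81 libraries). For neutrophil differentiation IL3 was replaced by GCSF (10 ng/ml) for 48 h (GCSF 0h, 3 libraries, before OHT by their treatment label although their titles name OHT), and 100 nM OHT was then added and the same 27 time points were sampled (GCSF-OHT, 78 libraries, with 2 libraries at 96h, 112h and 152h and 3 at every other time point). Cytokine, pre-treatment and OHT dose differ together between the conditions and cannot be told apart.

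NF-kB proteins act as dimers that IkB proteins hold in the cytoplasm. Signals from receptors for cytokines and microbial products activate the IkB kinase complex, IkB is degraded, and the freed dimers switch on genes of inflammation and survival. Among those genes are several of the inhibitors themselves, so the system limits its own output by negative feedback. In macrophages and neutrophils it is best known for driving the inflammatory response, and c-Rel and the nuclear IkB proteins shape which target genes are induced.

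Between 14600246 and 33147945 reads per library fell on genes (median 21960878), at which 3 reads, the smallest number taken as different from 0, equal a normalized count of 1.96 to 5.51, counting error only. The lowest count of any of the 10 genes was 26 reads (*Nfkbie*), so none of the values below lies near that floor. Reads on *Spi1*, which can come from the fusion gene or from what is left of the disrupted gene, were counted in all libraries (4482 to 13387 normalized counts). The *Spi1* count was 9799 to 10267 in undifferentiated cells and 5404 to 5689 at IL3-OHT 168h. It was 12464 to 12811 at GCSF 0h and 10728 to 11631 at GCSF-OHT 168h. Its part in the changes of the 10 genes was not tested. The summed count of 10 neutrophil markers was 206381 to 234007 at IL3-OHT 168h and 668671 to 709363 at GCSF-OHT 168h, and that of 10 monocyte and macrophage markers, 8 of them above 3 reads, was 13010.3 to 14176 and 8796 to 9957. Of 7 lymphocyte markers 1 exceeded 3 reads in any library of either condition, and their summed count was at most 21.5. In these bulk libraries more cells of a kind and more RNA per cell cannot be told apart. Each time point had a plate of its own, so plate and time cannot be told apart either. All libraries after 0h had OHT, so OHT cannot be told apart from time or handling since the start. An OHT effect below is therefore a change from the start of its condition. Libraries of 120h in both conditions carry names of another series than all others, and what it marks is not given in the sources used here. Cells of all time points after 24h were detached with trypsin, so that each comparison of a start or early time point with a later one, the 168h comparisons included, differs by this step too. Replicates were separate wells of one line, and p-values measure the spread between wells. The authors excluded IL3-OHT 96h and 144h as unlike their neighbors, and they take no part in the tests here except those after fresh OHT. They do enter descriptions over all libraries: levels per kb, marker sums and correlations of patterns. Differences are log2 fold changes of the normalized count plus 1 from limma, with the standard error (SE) of the fit. A gene counted as called where the change exceeded 0.58 in either direction with an adjusted p below 0.05, which are the thresholds of the study.

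Inhibitor genes are textbook targets of NF-kB, and sequences before start sites of some of the 10 genes are shown as a description. Whether matches in them go with the changes of the first hour was not tested. RefSeq start sites (GRCm38.p6) were matched in the promoter table used here for 7 of the 10 genes, with 12 start sites in all, and those of *Nfkb1*, *Relb* and *Nfkbiz* were not analysed here. The 250 bases before each start were searched on both strands for the kappa-B consensus, the degenerate 10-base site that NF-kB dimers bind, and matches that overlap were joined. At least 1 match stood before a start of 6 of the 7 genes, the exception being *Bcl3*, beside 4.46% of the 27025 genes in the table. Counted by start site, 8 of the 12 had a match, beside 3.90% of the 32851 start sites. The core letters of a PU.1 site, GAGGAA on either strand, stood before starts of 2 of the 7 genes (*Nfkbid* and *Rel*), beside 25.9% of all genes. A match describes letters in a window and does not show binding. The full windows of *Nfkbia* (chr12:55492648-55492897, minus strand), *Nfkbie* (chr17:45555450-45555699, plus strand) and the start of *Nfkbid* that has matches (chr7:30422156-30422405, plus strand) are given 5′ to 3′, with the kappa-B matches in capitals.
*Nfkbia*: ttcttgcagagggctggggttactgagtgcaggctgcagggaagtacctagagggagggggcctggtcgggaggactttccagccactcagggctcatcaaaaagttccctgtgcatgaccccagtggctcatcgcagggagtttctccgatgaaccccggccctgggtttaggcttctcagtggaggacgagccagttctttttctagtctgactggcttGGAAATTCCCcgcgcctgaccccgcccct
*Nfkbie*: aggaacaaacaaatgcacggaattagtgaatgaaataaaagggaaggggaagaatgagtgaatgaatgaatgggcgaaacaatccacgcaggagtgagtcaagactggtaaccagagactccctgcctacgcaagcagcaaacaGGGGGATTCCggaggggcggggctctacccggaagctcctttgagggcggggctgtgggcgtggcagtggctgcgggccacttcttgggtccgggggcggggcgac
*Nfkbid*: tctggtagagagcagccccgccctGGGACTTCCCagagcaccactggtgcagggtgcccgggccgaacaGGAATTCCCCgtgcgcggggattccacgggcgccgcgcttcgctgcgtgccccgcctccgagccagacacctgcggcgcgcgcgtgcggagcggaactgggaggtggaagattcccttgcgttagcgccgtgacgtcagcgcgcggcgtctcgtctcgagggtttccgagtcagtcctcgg

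For the 3 other genes with a match only the site and its flanks are shown, also 5′ to 3′ on the strand of the gene. *Tnfaip3* had matches at chr10:19015516-19015545 and chr10:19015411-19015432 (minus strand), *Rel* at chr11:23771042-23771070 (minus strand), and *Nfkb2* at 4 sites before 3 start sites, of which those at chr19:46304689-46304717 and chr19:46305695-46305724 (plus strand) are given. The *Rel* match and the first *Nfkb2* match fit the consensus on both strands. By the GENCODE annotation the *Nfkbia*, *Nfkbie* and *Rel* matches lie upstream of the gene, those of *Nfkbid* and *Tnfaip3* inside the gene but in no exon, and those shown for *Nfkb2* in first exons of its other transcripts.
*Tnfaip3*, first site: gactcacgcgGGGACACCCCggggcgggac
*Tnfaip3*, second site: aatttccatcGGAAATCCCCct
*Rel*: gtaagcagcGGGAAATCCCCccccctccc
*Nfkb2*, first site: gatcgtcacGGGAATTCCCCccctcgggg
*Nfkb2*, site before a later start: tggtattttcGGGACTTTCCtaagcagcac

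Divided by the merged exon length of each gene (GENCODE vM21, GRCm38), the median normalized count over all libraries was by far the highest for *Nfkbia*, 1959 per kb. *Nfkbia* (chr12:55489410-55492647) encodes IkB-alpha, the main inhibitor that is resynthesized after NF-kB activation. The order after it was *Nfkb2* (chr19:46304320-46312385) at 336 per kb, *Nfkbid* (chr7:30421732-30428746) at 143.7, *Nfkb1* (chr3:135584655-135691547) at 133.2, *Bcl3* (chr7:19808462-19822770) at 91.2, *Relb* (chr7:19606217-19629438) at 87.6, *Nfkbiz* (chr16:55811375-55838899) at 83.3, *Tnfaip3* (chr10:19000910-19015657) at 72.96, *Rel* (chr11:23736847-23770970) at 38.6 and *Nfkbie* (chr17:45555703-45563169) at 34.1. The order of neighbors depends on the time points pooled and on the exon models, and it was not tested. Exons of other genes on the opposite strand cover 11.6% and 6.52% of the exon bases of *Nfkb2* and 6.51% of those of *Bcl3*, and whether the counting used strand is not given in the sources used here. Within a time point the wells varied little, with a median coefficient of variation from 3.60% (*Nfkb1*) to 10.1% (*Nfkbie*).

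The first comparison asks what 48 h of GCSF in place of IL3 does before PU.1 is activated. *Nfkbia* and *Nfkbiz* (IkB-zeta, a nuclear co-activator of inflammatory genes) fell, *Bcl3* (a nuclear IkB protein that binds DNA-bound subunit dimers) and *Rel* (c-Rel) rose, and the 6 other genes were not called. The 4 calls among 10 genes stand beside 33.7% of all genes tested, a share near that background. Marker sums moved with these changes: from undifferentiated cells to GCSF 0h the monocyte and macrophage markers went from 2868 to 3157 down to 884 to 1178, the neutrophil markers from 221902 to 228680 up to 311167 to 350812, 8 mast cell and basophil markers (3 of them above 3 reads) from 217 to 233 up to 518 to 638, and 6 erythroid and megakaryocyte markers (2 above 3 reads) from 345 to 427 down to 97.86 to 121.1. Their part in the changes of the 10 genes was not tested.

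The *Nfkbia* counts were 6116, 6341 and 6429.7 in the undifferentiated libraries and 1802, 1735 and 1724 at GCSF 0h. No library of one group came near the other, and the log2 fold change was -1.84 (SE 0.07, adjusted p = 2.45e-50), a 3.59-fold decrease. *Nfkbiz* went from 809.9, 769 and 775 to 259, 251 and 260.0, -1.61 (SE 0.10, adjusted p = 4.05e-30) on the log2 scale, again without overlap. *Bcl3* moved in the opposite direction by about as much, from 88.98, 85.9 and 96.9 to 305, 334 and 356, a change of 1.86 (SE 0.15, adjusted p = 1.57e-21). The rise of *Rel* from 134 ± 15.4 (n = 3, SD) to 210.2 ± 13.2 (n = 3, SD) was smaller (0.65, SE 0.10, adjusted p = 1.18e-08), and without replicate 3 it was 0.50, below the fold threshold. *Nfkb1*, *Nfkb2* and *Relb*, the other subunit genes, changed by 0.44, -0.34 and -0.53, with adjusted p from 5.03e-15 to 6.89e-05 but below the fold threshold. *Relb* passed it with upper-quartile scaling (-0.60) and without replicate 3 (-0.58). For *Nfkbid*, *Nfkbie* and *Tnfaip3* the values were -0.24 (95% interval -0.45 to -0.02), -0.28 (-0.61 to 0.06) and -0.19 (-0.47 to 0.08), with adjusted p from 0.0509 to 0.242.

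**Figure D1:**
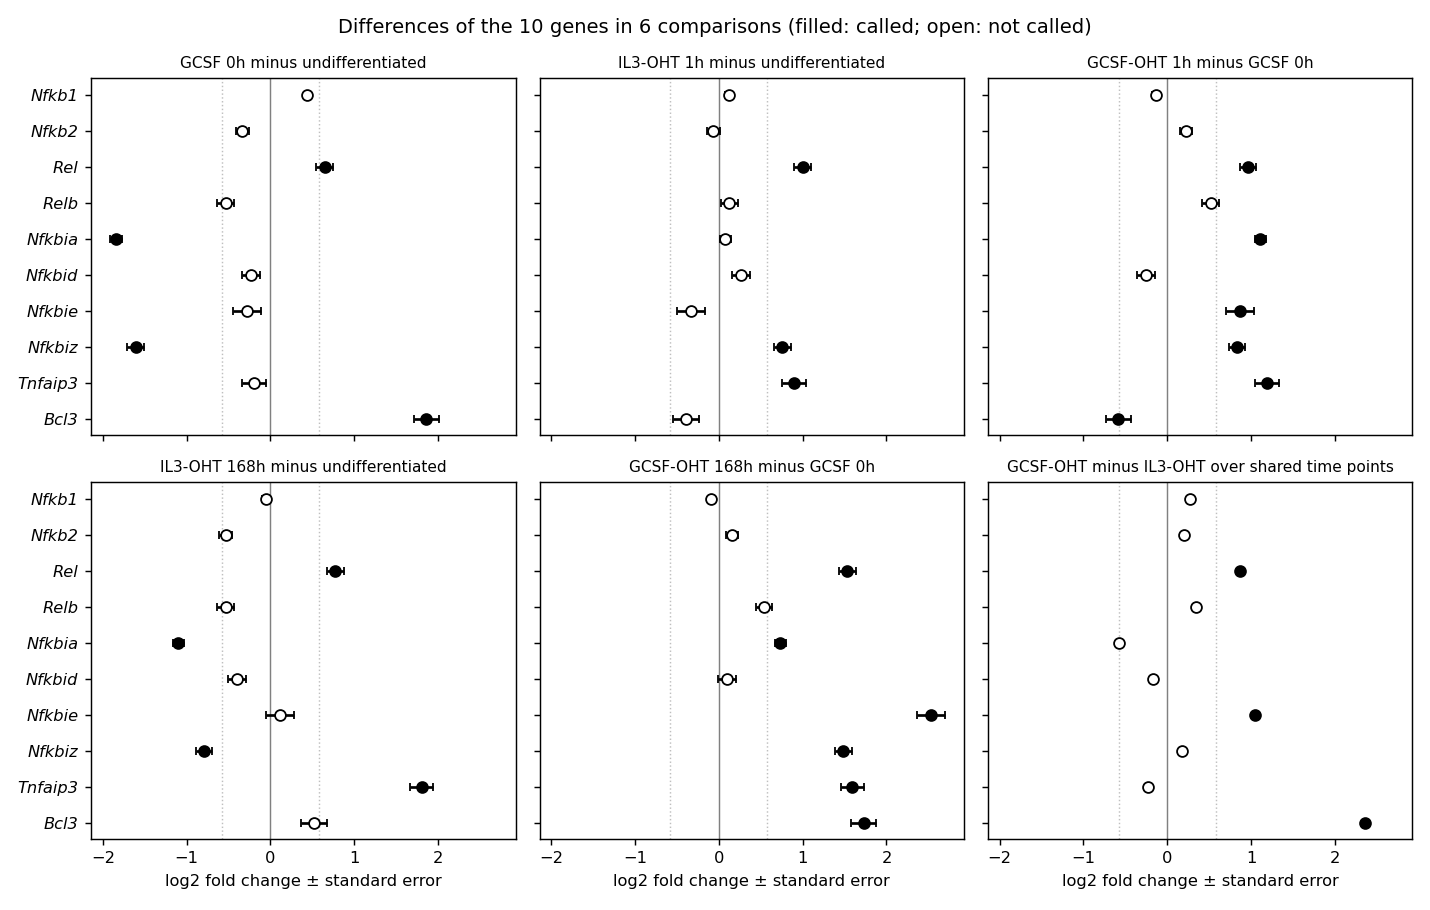
Log2 fold change of each of the 10 genes (points, with standard errors as bars) in 6 comparisons, with the fold threshold as dotted lines; filled points were called, open points were not. *Rel*, *Nfkbiz* and *Tnfaip3* lie to the right of the threshold 1 h after OHT in both conditions, while *Nfkbia* and *Nfkbie* do so in GCSF only.

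The next comparisons ask which of the genes change within 1 h of adding OHT, each condition against its own start. In IL3 *Rel*, *Nfkbiz* and *Tnfaip3* (which encodes a ubiquitin-editing enzyme that restrains signaling to the IkB kinase) rose and none fell, 3 called of 10 beside 4.42% of all genes. In GCSF the same 3 genes rose, *Nfkbia* and *Nfkbie* (IkB-epsilon) rose with them and *Bcl3* fell, 6 called of 10 beside 6.05% of all genes. The GCSF comparison shares the GCSF 0h libraries with the comparison of the pre-treatment.

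*Rel* rose by similar amounts in both conditions: the libraries held 146.5, 139.1 and 116.99 before and 276, 263 and 266 after 1 h in IL3, and 199, 207 and 225 before and 408, 362 and 467 after in GCSF. The groups did not overlap in either condition, and the log2 fold changes were 1.00 (SE 0.10, adjusted p = 7.36e-15) in IL3 and 0.96 (SE 0.10, adjusted p = 1.79e-14) in GCSF. For *Tnfaip3* the counts went from 182, 173.9 and 146.5 to 288, 309 and 338 in IL3, 0.89 (SE 0.14, adjusted p = 1.56e-07). They went from 166, 115.1 and 161 to 336, 319 and 347 in GCSF, 1.19 (SE 0.14, adjusted p = 3.99e-12). Each 1h library was thus above each library of its start. *Nfkbiz* started higher in IL3 than in GCSF and rose in IL3 from 809.9, 769 and 775 to 1295, 1390.1 and 1296 (0.76, SE 0.10, adjusted p = 4.97e-10), and in GCSF from 259, 251 and 260.0 to 397, 454 and 529.9 (0.83, SE 0.10, adjusted p = 6.20e-12).

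*Nfkbia* separated the conditions. In IL3 the libraries held 6580.0, 6551 and 6761 at 1h, 0.08 from the start with a 95% interval of -0.06 to 0.21 (adjusted p = 0.507). In GCSF they held 3613, 3810.1 and 3940.4, up from the low level after pre-treatment by 1.11 (SE 0.07, adjusted p = 6.54e-30), and still below each undifferentiated library. The difference of these effects, tested as an interaction, was 1.03 (SE 0.09, adjusted p = 7.98e-17). *Nfkbie* held 30.5, 33.6 and 44.7 at GCSF 0h and 69.1, 72.8 and 57.5 at GCSF-OHT 1h (0.87, SE 0.17, adjusted p = 1.29e-05), while in IL3 it went from 43.96 ± 7.24 (n = 3, SD) to 34.9 ± 6.86 (n = 3, SD) (-0.33, SE 0.17, adjusted p = 0.179), and its interaction was 1.19 (SE 0.24, adjusted p = 9.07e-05). These were the 2 genes of 10 whose interaction at 1h was called, beside 2.81% of all genes. For *Rel*, *Nfkbiz* and *Tnfaip3* the interaction was -0.04 (95% interval -0.32 to 0.25), 0.07 (-0.20 to 0.35) and 0.30 (-0.10 to 0.69). These were not called, and differences inside these intervals remain possible. *Nfkbid* (IkB-NS, a nuclear IkB protein) had an interaction of -0.52 (SE 0.15, adjusted p = 0.0145), below the fold threshold except without replicate 3 (-0.58).

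*Bcl3* was the gene that fell in the first hour in GCSF, from 305, 334 and 356 to 226, 235 and 202 (-0.58, SE 0.15, adjusted p = 0.0014). The fall lies at the fold threshold: it was -0.57 with a pseudocount of 5, -0.53 with upper-quartile scaling and -0.47 without replicate 3 (adjusted p = 0.0605), and was not called there. In IL3 *Bcl3* changed by -0.39 (adjusted p = 0.056). Of the subunits, *Relb* changed by 0.52 (SE 0.10, adjusted p = 1.63e-05) in GCSF, below the fold threshold except without replicate 1 (0.65), and by 0.13 in IL3. *Nfkb1* and *Nfkb2* changed by no more than 0.22 in either condition.

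Genes of the surrounding pathway were counted in the same comparisons from fixed lists. After 1 h in IL3 the counts called were 0 higher and 0 lower of 10 for the other core components (median -0.01), 0 higher and 0 lower of 20 for the receptor-proximal signaling components (median 0.02), 0 higher and 0 lower of 15 for the other negative regulators (median 0.06), 1 higher and 0 lower of 11 for the ligands and cytokine receptors (median 0.22), and 4 higher and 1 lower of 18 for the other target genes (median 0.13), beside a median of 0.03 and 4.42% called over all genes tested. The target genes called there included *Ptgs2* (prostaglandin synthase), which went from 508 ± 35.03 to 1364 ± 107, 1.42 (SE 0.19, adjusted p = 8.70e-10), and the chemokine genes *Cxcl2* (0.89) and *Ccl3* (0.61). After 1 h in GCSF they were 1 higher and 0 lower of 10 for the other core components (median 0.18), 2 higher and 1 lower of 20 for the receptor-proximal signaling components (median -0.10), 2 higher and 0 lower of 15 for the other negative regulators (median 0.06), 2 higher and 1 lower of 11 for the ligands and cytokine receptors (median 0.27), and 6 higher and 1 lower of 18 for the other target genes (median 0.38), beside a median of 0.00 and 6.05% called over all genes tested. *Ptgs2* went from 24.5 ± 6.48 to 200.3 ± 19.03 in GCSF (3.00, SE 0.19, adjusted p = 3.81e-28), *Ccl3* from 399 ± 35.1 to 1448 ± 113 (1.86, SE 0.09, adjusted p = 5.19e-36) and *Ccl4* from 107.6 ± 8.19 to 383 ± 33.7 (1.82, SE 0.14, adjusted p = 1.65e-22). *Zc3h12a*, an RNase gene that restrains inflammatory transcripts, went from 1111 ± 190.9 to 2089.9 ± 70.8, 0.92 (SE 0.11, adjusted p = 2.48e-12). The interaction at 1h was called, higher in GCSF in each case, for 4 of 18 target genes (*Ptgs2*, 1.58, *Ccl4*, 1.44, *Cxcl2*, 1.34, and *Ccl3*, 1.25), 1 of 15 negative regulators (*Zc3h12a*, 0.62) and 1 of 10 core components (*Map3k14*, the kinase gene of the non-canonical pathway, 0.61), and for 0 of 20 receptor-proximal components and 0 of 11 ligands and receptors, beside 2.81% of all genes. In GCSF each started from a lower level than in IL3: *Ptgs2* had been 508 in undifferentiated cells and *Zc3h12a* 2848.

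Over the following hours the first-hour genes took different courses, seen in the comparisons of consecutive time points. Of 250 such comparisons of the 10 genes in IL3, 12 were called higher and 6 lower, beside 3.65% of all comparisons of all genes, and of 270 in GCSF 11 were called higher and 6 lower, beside 1.81%. The 18 calls in IL3 became 28 when replicate 3 was left out. *Nfkbiz* fell again between 1h and 2h, changing by -1.10 (SE 0.10, adjusted p = 3.01e-18) in IL3 and -0.77 (SE 0.10, adjusted p = 1.35e-10) in GCSF. *Rel* changed by -0.75 (SE 0.10, adjusted p = 1.91e-10) in IL3 over the same hour, and in GCSF by -0.35 (SE 0.10, adjusted p = 0.00416), not called. *Nfkbia* changed by -0.73 (SE 0.07, adjusted p = 1.18e-17) in GCSF, and in IL3, where it had not risen, the steps to 2h, 3h and 8h were -0.32, -0.51 and -0.58, none of them called.

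*Tnfaip3* had a second rise in both conditions. After falling to 154.7 ± 11.2 (n = 3, SD) in IL3 and 178 ± 19.9 (n = 3, SD) in GCSF at 4h, it rose by 0.71 (SE 0.14, adjusted p = 1.25e-05) in IL3 and 0.93 (SE 0.14, adjusted p = 2.62e-08) in GCSF from 4h to 8h. At 12h the libraries held 580.4, 511 and 525 in IL3 and 601, 552 and 352 in GCSF, and 1 of the GCSF libraries lay well under the others. The step from 8h to 12h was called in IL3 (1.08, SE 0.14, adjusted p = 1.55e-10) and not in GCSF. At 20h the count was lower than at 16h in both conditions, with changes of -0.64 (SE 0.14, adjusted p = 0.00366) in IL3 and -0.83 (SE 0.14, adjusted p = 2.31e-05) in GCSF. In IL3 it rose again from 20h to 24h (0.73, SE 0.14, adjusted p = 3.96e-04), a step not called in GCSF. At 72h *Tnfaip3* was again low in GCSF, 300.0, 287 and 284 beside 469, 467 and 447 at 64h and 573, 546 and 487 at 80h, with both steps called (-0.67 and 0.88). At IL3-OHT 72h it was 402, 491 and 583 and the steps, -0.45 and 0.43, were not called. Dips shared by both conditions at a time point move with the plate as well as with the time.

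**Figure D2:**
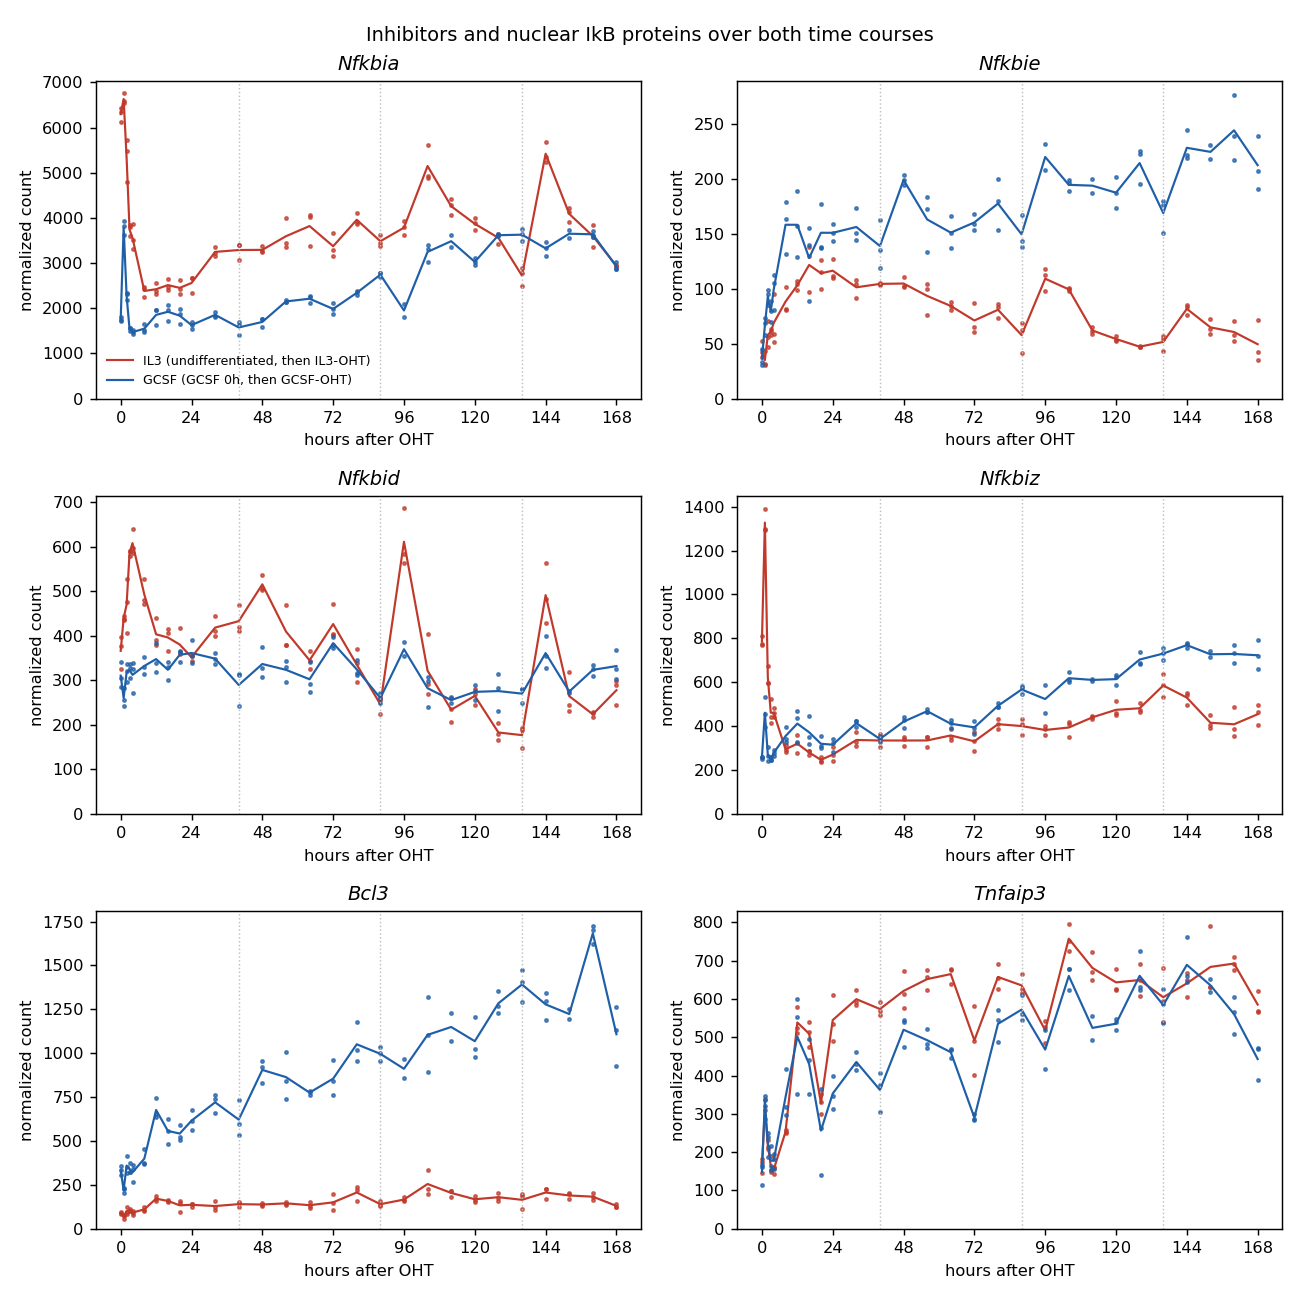
Normalized counts (linear axes from 0) of the inhibitor and nuclear IkB genes against hours after OHT, in IL3 (red, undifferentiated cells at 0) and in GCSF (blue, GCSF 0h at 0). Points are libraries, lines join the means of each time point, and dotted lines mark the addition of fresh OHT and medium at 40h, 88h and 136h. *Bcl3* is higher in GCSF at each time point, *Nfkbia* is higher in IL3 over most of the course, and *Nfkbid* stands above its neighbors in IL3 at 96h and 144h.

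Each course was tested as a whole by the moderated F statistic of limma, a gene being called if it also passed the fold threshold at some time point. By this test 9 of the 10 genes were called in IL3, beside 69.7% of all genes, and 8 in GCSF, beside 47.7%. *Nfkb1* was called in neither (largest difference from the start 0.37 in IL3 and 0.18 in GCSF), and *Nfkbid* was not called in GCSF (0.31). Against the start, single time points of the 10 genes in IL3 were called 76 times higher and 61 times lower of 250, beside 26.7% called over all genes. In GCSF, of 27 time points each, the calls were 27 higher for *Rel* and *Nfkbie*, 25 for *Tnfaip3*, 22 for *Bcl3*, 19 for *Nfkbiz*, 11 for *Nfkbia*, 7 for *Relb*, 1 for *Nfkb2* and 0 for *Nfkb1* and *Nfkbid*, and 1 was lower, *Bcl3* at 1h. They stand beside 8.39% higher and 6.99% lower (15.4% in all) over all genes. All comparisons of a condition share its start libraries.

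*Nfkbia*, measured from the start, was called lower at 21 of 25 time points in IL3 and higher at 11 of 27 in GCSF. In IL3 it reached its lowest mean at 8h, 2382 ± 113 (n = 3, SD), and the 12h, 16h, 20h and 24h libraries overlapped that range. It then climbed to 5148 ± 409 (n = 3, SD) at 104h, was down to 2719 ± 201.3 (n = 3, SD) at 136h, rose to 4088 ± 154.2 (n = 3, SD) at 152h (0.59 between these time points, SE 0.07, adjusted p = 1.59e-13) and ended at 2939 ± 26.7 (n = 3, SD) at 168h. IL3-OHT 144h is left out of this course. There *Nfkbia* stood 0.70 above the mean of 136h and 152h on the log2 scale. In GCSF it was lowest at 4h, 1469.8 ± 45.2 (n = 3, SD), held below 1921 up to 48h, and stood at 3649 ± 119 (n = 2, SD) at 152h, a level whose libraries overlapped those of the 1h peak. At 168h the conditions met: the libraries held 2912, 2965 and 2941 in IL3 and 2877, 3012 and 2868 in GCSF, a difference of -0.01 with a 95% interval of -0.14 to 0.12. *Nfkbiz* was called higher at 1 and lower at 22 of 25 time points in IL3, with its lowest mean at 20h (245 ± 11.4, n = 3, SD), and higher at 19 of 27 in GCSF, with its highest at 144h (769 ± 12.96, n = 3, SD).

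*Nfkbie*, the other cytoplasmic inhibitor, parted between conditions. It was called higher than the start at all 27 time points in GCSF and at 14 of 25 in IL3. In IL3 its highest mean was at 16h (97.2, 137.9 and 129.5), with 10 other time points from 8h to 104h overlapping that range. It was back to 71.3, 42.1 and 34.9 at 168h, a range that overlaps the 37.9, 41.9 and 52.0 of undifferentiated cells. In GCSF it rose from 36.3 ± 7.48 (n = 3, SD) to 158.1 ± 24.2 (n = 3, SD) at 8h and 244 ± 30.1 (n = 3, SD) at 160h. *Tnfaip3* was called higher at 22 of 25 time points in IL3 and 25 of 27 in GCSF, its highest means being 758 ± 34.7 (n = 3, SD) at IL3-OHT 104h and 689 ± 63.96 (n = 3, SD) at GCSF-OHT 144h.

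*Bcl3* had the largest relative range of the 10 genes, 58.2 to 1725 over all libraries. In GCSF it climbed from 221 ± 17.03 (n = 3, SD) at 1h to 677 ± 57.4 (n = 3, SD) at 12h, 1051 ± 113.9 (n = 3, SD) at 80h and 1683 ± 55.6 (n = 3, SD) at 160h, and fell back to 1108 ± 170.5 (n = 3, SD) at 168h (-0.61, SE 0.15, adjusted p = 0.00138 for that last step). No other time point reached the range of the 160h libraries. In IL3 its means ran from 69.2 at 1h to 255 at 104h, where the wells differed (337, 200.4 and 228). The nuclear IkB gene *Nfkbid* changed mainly in IL3, where it rose to 640.1, 598 and 586 at 4h from 398, 324 and 376 and declined to 193, 148 and 188 at 136h, 0.74 (SE 0.11, adjusted p = 2.22e-09) and -1.05 (SE 0.11, adjusted p = 5.42e-16) from the start. In GCSF all its means lay between 255 and 383.

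Among the subunits, *Nfkb1*, which encodes a precursor that is processed to a DNA-binding subunit without an activation domain, was the steadiest, with means from 1143 to 1647 in IL3 and 1537 to 1954 in GCSF. *Rel* was called higher than the start at all 27 time points in GCSF, from 321 ± 16.02 (n = 3, SD) at 3h to 609 ± 30.2 (n = 3, SD) at 168h, and at 21 of 25 in IL3, where its means stayed at or below 285. *Nfkb2* and *Relb*, the pair of the non-canonical pathway, had lower means from 20h to 40h than at 4h in both conditions, a comparison that was not tested. In GCSF neither gene was called lower than the start at any time point. The lowest differences there were -0.18 for *Nfkb2* at 40h and -0.13 for *Relb* at 32h, and no step between consecutive time points was called for either. In IL3 *Relb* fell from 479, 528 and 515 at 1h to 279, 220.0 and 229.7 at 32h, and *Nfkb2* from 1873, 1915 and 2015 at 12h to 1255, 1072 and 1147 at 32h. In GCSF *Relb* had its lowest mean at the same time, 293 ± 8.87 (n = 3, SD), and its highest at 144h, 611 ± 21.5 (n = 3, SD). *Nfkb2* was highest there too, 2544, 1985 and 2267, with 8 other time points overlapping that range. Against the start, *Relb* was called lower at 12 time points in IL3 and higher at 7 in GCSF.

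**Figure D3:**
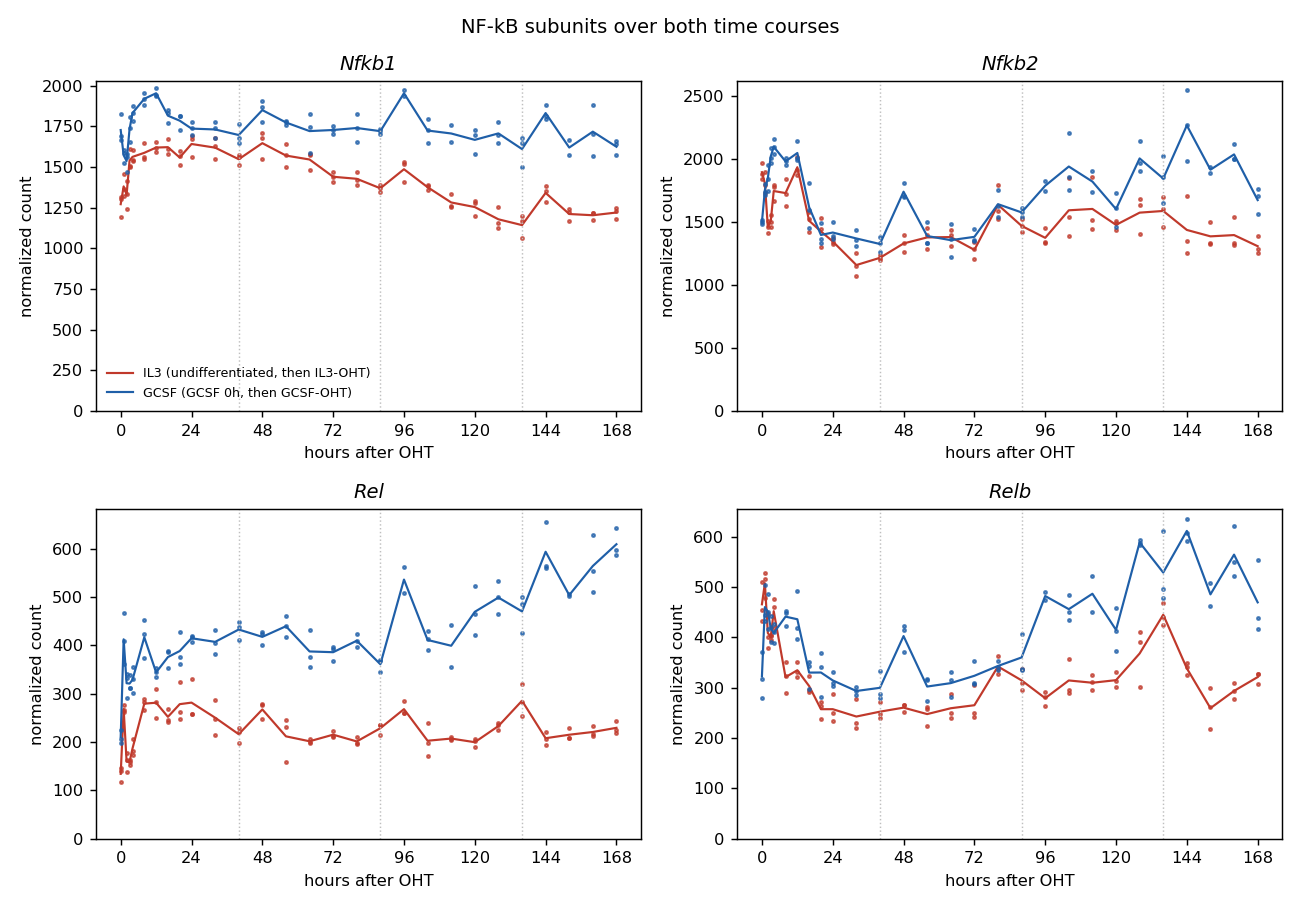
Normalized counts (linear axes from 0) of the subunit genes against hours after OHT, drawn as for the inhibitors: red for IL3, blue for GCSF, points for libraries, lines for means, dotted lines for fresh OHT and medium. *Rel* in GCSF stays above IL3 from 1h to 168h, while *Nfkb2* of the conditions lies close together from 56h to 80h.

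At 168h each condition was compared with its own start. In IL3, *Tnfaip3* and *Rel* rose and *Nfkbia* and *Nfkbiz* fell, 4 called of 10 beside 25.4% of all genes. In GCSF, *Nfkbie*, *Bcl3*, *Tnfaip3*, *Rel*, *Nfkbiz* and *Nfkbia* all rose and none fell, 6 called of 10 beside 24.8% of all genes in either direction and 12.1% called higher. Marker sums moved with these changes: from GCSF 0h to GCSF-OHT 168h the neutrophil markers went from 311167 to 350812 up to 668671 to 709363, the monocyte and macrophage markers from 884 to 1178 up to 8796 to 9957, and 6 progenitor markers from 14777 to 14957 down to 7398 to 7530.5. In IL3, from undifferentiated cells to 168h, the neutrophil sum was 221902 to 228680 and then 206381 to 234007, the monocyte and macrophage sum 2868 to 3157 and then 13010.3 to 14176, and the progenitor sum 12854 to 14156 and then 5286 to 5517. Over the same comparisons the mast cell and basophil sum went from 518 to 638 down to 395 to 437 in GCSF and from 217 to 233 down to 68.9 to 94.2 in IL3, and the erythroid and megakaryocyte sum from 97.86 to 121.1 up to 117.4 to 147.6 in GCSF and from 345 to 427 down to 211.3 to 234 in IL3. Their part in the changes of the 10 genes was not tested. The median log2 fold change of the 10 genes was -0.23 in IL3 and 1.11 in GCSF, beside -0.03 and 0.00 over all genes.

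In GCSF the largest change was that of *Nfkbie*, to 190.9, 207 and 239 (2.53, SE 0.17, adjusted p = 1.69e-27), followed by *Bcl3*, to 1134, 926 and 1264 (1.73, SE 0.15, adjusted p = 2.01e-19). *Tnfaip3* reached 469, 472 and 388 (1.59, SE 0.14, adjusted p = 2.76e-19), *Rel* 587, 596 and 643 (1.53, SE 0.10, adjusted p = 1.01e-27) and *Nfkbiz* 717, 792 and 658 (1.49, SE 0.10, adjusted p = 2.69e-27). None of these libraries overlapped those of GCSF 0h. *Nfkbia* changed by 0.73 (SE 0.07, adjusted p = 1.14e-18). In IL3 *Tnfaip3* had the largest change, to 566, 570.0 and 620.2 (1.80, SE 0.14, adjusted p = 1.49e-22). *Rel* changed by 0.77 (SE 0.10, adjusted p = 4.04e-11), to 243, 225 and 219.6. *Nfkbia* changed by -1.10 (SE 0.07, adjusted p = 2.09e-30) and *Nfkbiz*, at 403, 464 and 494, by -0.79 (SE 0.10, adjusted p = 7.65e-12). *Bcl3* in IL3 was 0.52 (SE 0.15, adjusted p = 0.00221), below the fold threshold.

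From undifferentiated cells through the pre-treatment to GCSF-OHT 168h, *Bcl3* changed by 3.59 (SE 0.15, adjusted p = 4.07e-44), a 12.02-fold increase, *Nfkbie* by 2.25, *Rel* by 2.18, *Tnfaip3* by 1.40 and *Nfkbia* by -1.11, 5 called of 10 beside 39.1% of all genes. *Nfkbiz*, which had fallen in the pre-treatment and risen after OHT, ended -0.12 from undifferentiated cells with a 95% interval of -0.32 to 0.07. *Relb* ended at 0.00 (-0.20 to 0.20). This comparison shares libraries with each of those above.

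The interaction at 168h, the OHT effect in GCSF minus that in IL3, was called for 7 of the 10 genes, all higher in GCSF, beside 25.7% of all genes in either direction and 14.5% higher. It was 2.42 (SE 0.24, adjusted p = 2.09e-16) for *Nfkbie*, 2.28 (SE 0.14, adjusted p = 1.62e-29) for *Nfkbiz*, 1.83 (SE 0.09, adjusted p = 6.73e-36) for *Nfkbia* and 1.21 (SE 0.21, adjusted p = 7.50e-07) for *Bcl3*. For the subunits it was 1.07 (SE 0.14, adjusted p = 1.72e-10) for *Relb*, 0.76 (SE 0.14, adjusted p = 2.89e-06) for *Rel* and 0.69 (SE 0.11, adjusted p = 2.93e-08) for *Nfkb2*. Neither effect alone was called for *Relb* (-0.53 in IL3 and 0.54 in GCSF) or *Nfkb2* (-0.54 and 0.16). *Relb* passed the threshold without replicate 3 in IL3 (-0.60) and without replicate 1 in GCSF (0.69). The GCSF start differed from undifferentiated cells by -0.53 for *Relb* and -0.34 for *Nfkb2*. Neither gene was called between the conditions at 168h. *Tnfaip3* (-0.21, 95% interval -0.60 to 0.18) and *Nfkb1* (-0.03, -0.16 to 0.10) were not called. *Nfkbid* had 0.49 (SE 0.15, adjusted p = 0.00439), below the fold threshold except without replicate 2 (0.67). For *Nfkbia*, whose levels at 168h were alike, the interaction equals the difference between the starts to within -0.01.

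Around the 10 genes, the lists at 168h gave, in IL3, 0 higher and 3 lower of 10 for the other core components (median -0.34), 3 higher and 2 lower of 20 for the receptor-proximal signaling components (median 0.08), 2 higher and 2 lower of 15 for the other negative regulators (median -0.19), 3 higher and 2 lower of 11 for the ligands and cytokine receptors (median 0.27), and 5 higher and 4 lower of 18 for the other target genes (median -0.06), beside a median of -0.03 and 25.4% called over all genes tested. *Rela*, the main activating subunit and not one of the 10, went from 5456 ± 93.6 to 2539.6 ± 132 in IL3 (-1.10, SE 0.07, adjusted p = 1.85e-27). From undifferentiated cells to GCSF-OHT 168h it went from 5456 ± 93.6 to 2654 ± 159.8 (-1.04, SE 0.07, adjusted p = 5.19e-26), and the pre-treatment alone took it to 2979 ± 101.8. *Tnf*, a cytokine gene that both activates NF-kB and is its target, went from 249 ± 14.8 to 738 ± 15.2 in IL3 (1.57, SE 0.10, adjusted p = 3.37e-27) and from 108.3 ± 8.16 to 578 ± 38.2 in GCSF (2.41, SE 0.10, adjusted p = 1.31e-42). In GCSF the lists gave 2 higher and 0 lower of 10 for the other core components (median 0.15), 5 higher and 0 lower of 20 for the receptor-proximal signaling components (median 0.29), 3 higher and 0 lower of 15 for the other negative regulators (median 0.27), 2 higher and 0 lower of 11 for the ligands and cytokine receptors (median 0.41), and 7 higher and 2 lower of 18 for the other target genes (median 0.56), beside a median of 0.00 and 24.8% called over all genes tested. *Birc3*, a ubiquitin ligase gene of the TNF receptor complex, went from 199 ± 13.7 to 798 ± 46.8 in GCSF (2.00, SE 0.09, adjusted p = 4.64e-42) and from 149.3 ± 22.1 to 339 ± 27.9 in IL3 (1.18, SE 0.09, adjusted p = 6.81e-24). *Cyld*, a deubiquitinase gene that restrains the pathway, went from 808 ± 20.7 to 1378 ± 38.6 in GCSF (0.77, SE 0.08, adjusted p = 2.85e-15) and from 597 ± 38.3 to 925 ± 55.2 in IL3 (0.63, SE 0.08, adjusted p = 1.95e-11). The interaction at 168h was called for 6 higher and 0 lower of 10 core components (*Rela* among them with 0.94, SE 0.10, adjusted p = 6.69e-14), 5 higher and 3 lower of 20 receptor-proximal components, 4 higher and 0 lower of 15 negative regulators, 3 higher and 1 lower of 11 ligands and receptors, and 8 higher and 3 lower of 18 target genes, beside 25.7% of all genes. In other comparisons more of the target genes were called lower than higher: 2 were called higher and 8 lower of 18 in the pre-treatment (median -0.57, beside -0.09 and 33.7% called over all genes), 4 higher and 7 lower from undifferentiated cells to GCSF-OHT 168h (median -0.09, beside -0.11 and 39.1%), and 5 higher and 8 lower in GCSF against IL3 over the shared time points (median -0.36, beside -0.06 and 24.5%). Over all genes tested, more were also called lower than higher in each of these comparisons. The pre-treatment had 2261 higher and 3600 lower. From undifferentiated cells to GCSF-OHT 168h the counts were 2705 and 4102, and over the shared time points 1627 and 2635. From the start to 168h in GCSF, *Nos2* went from 51.2 ± 8.86 to 1679 ± 363 (5.00, SE 0.24, adjusted p = 2.54e-38), while *Plau* went from 1449 ± 156 to 176 ± 14.4 (-3.03, SE 0.09, adjusted p = 6.82e-57).

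Over the 25 time points used in both conditions, *Bcl3*, *Nfkbie* and *Rel* were higher in GCSF and no gene of the 10 was called lower, 3 called of 10 beside 24.5% of all genes. The mean of the time points was 833 in GCSF and 149.6 in IL3 for *Bcl3*, with a log2 difference of 2.36 (SE 0.03, adjusted p = 5.77e-98). *Nfkbie* averaged 161 and 78.05, 1.05 (SE 0.03, adjusted p = 2.82e-56), and *Rel* 419 and 229, 0.87 (SE 0.02, adjusted p = 9.64e-71). *Nfkbia* averaged 2464 in GCSF and 3592 in IL3, a difference of -0.57 (SE 0.01, adjusted p = 1.39e-70), just below the fold threshold and past it with upper-quartile scaling (-0.62). The other 6 genes differed by -0.23 (*Tnfaip3*) to 0.34 (*Relb*). The summed count of the neutrophil markers moved with *Bcl3*, *Nfkbie* and *Rel*, from 144018 to 353109.7 in IL3 to 291532 to 809692 in GCSF over all time points, and that of the monocyte and macrophage markers was 2762 to 14588 in IL3 and 1216 to 9957 in GCSF. The mast cell and basophil sum did not overlap between the conditions, with 51.5 to 242 in IL3 and 395 to 952 in GCSF, 3 of its 8 genes being above 3 reads and *Cpa3*, *Fcer1a* and *Cma1* among those that were not. The part of cell composition in these differences was not tested.

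By time point, 75 of 250 differences were called higher in GCSF and 26 lower, beside 9.97% higher and 12.7% lower (22.7% in all) over all genes. *Bcl3* was called higher at all 25, from 1.67 at 1h to 3.20 at 160h, *Rel* at 20 and *Nfkbie* at 19, with 0.05 at 16h and 2.16 at 128h. *Nfkbia* was called lower at 14 time points, with a difference of -1.28 at 3h, and at none of the 7 time points after 104h. *Nfkbiz* changed side: it was called lower in GCSF from 1h to 4h (-1.54 at 1h) and higher at 104h, 152h, 160h and 168h (up to 0.85). *Nfkbid* was called lower at 5 time points up to 48h and higher at 128h and 136h (0.59 and 0.62). *Tnfaip3* was called lower at 24h, 40h and 72h, *Relb* higher at 5 time points, and *Nfkb1* and *Nfkb2* at none. *Nfkb1* was nevertheless higher in GCSF at all 25 time points, by 0.08 to 0.53.

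**Figure D4:**
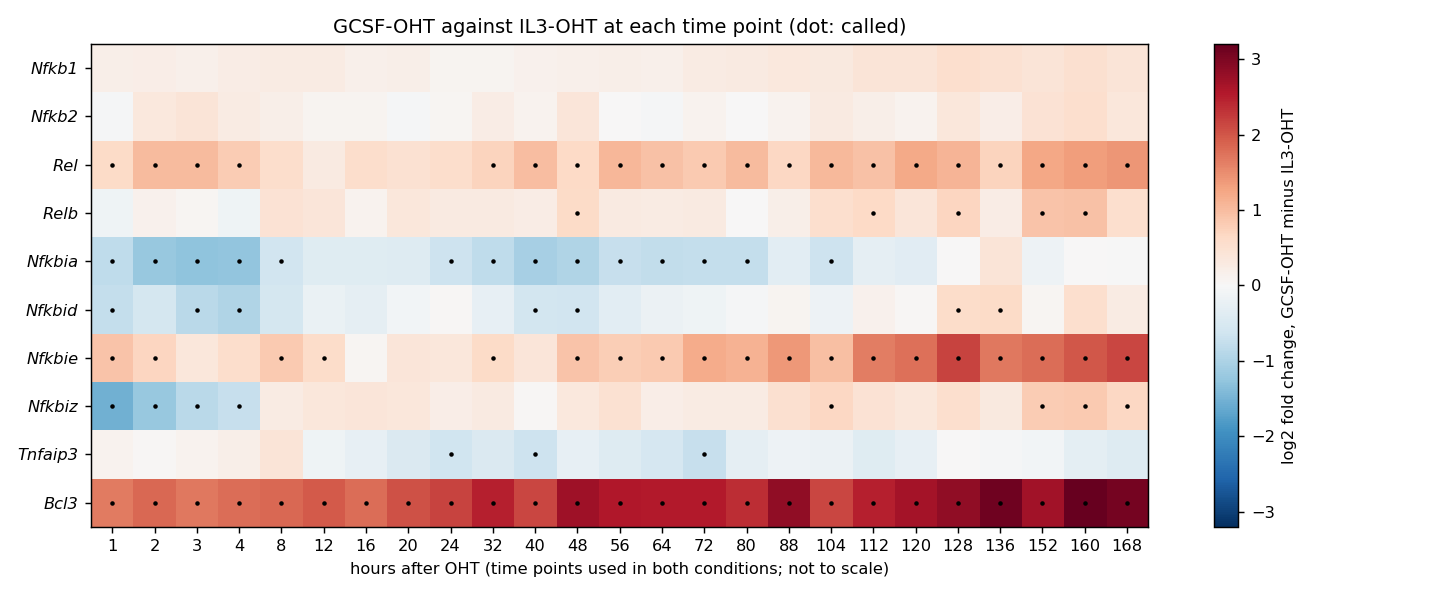
Log2 difference between GCSF-OHT and IL3-OHT for each of the 10 genes (rows) at the 25 time points used in both conditions (columns, not to scale in time); red is higher in GCSF, blue is higher in IL3, and a dot marks a call. *Bcl3* is called at all 25 time points, and *Nfkbia* and *Nfkbiz* are blue in the first hours.

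The cells received new medium in exchange for part of the old, with OHT, at 40h, 88h and 136h. The time points 8 h later were compared with the mean of the time points before and after them, with IL3-OHT 96h and 144h included. *Nfkbid* rose in IL3 at 96h and 144h, and these were 2 of the 4 calls among 60 comparisons, beside 6.89% over all genes. At IL3-OHT 88h, 96h and 104h the *Nfkbid* libraries held 224, 256 and 257, then 584, 563 and 687, then 404, 290.5 and 269, and the difference was 1.13 (SE 0.09, adjusted p = 9.59e-21). At 136h, 144h and 152h they held 193, 148 and 188, then 483, 428 and 563, then 244, 318 and 230.2, a difference of 1.19 (SE 0.09, adjusted p = 4.93e-22). Each library of 96h and of 144h stood above all libraries of its neighbors. In GCSF the *Nfkbid* differences were 0.14 at 48h, 0.45 at 96h and 0.40 at 144h, and at IL3-OHT 48h 0.30, all in the same direction and not called. *Nfkbia* was called higher at IL3-OHT 144h, 5341, 5238 and 5682 between 2778, 2494 and 2884 and 3915, 4136 and 4212 (0.70, SE 0.06, adjusted p = 2.37e-21), and lower at GCSF-OHT 96h, 2089 and 1809.7 (2 libraries) between 2769, 2683 and 2774 and 3029, 3314 and 3399 (-0.62, SE 0.07, adjusted p = 1.58e-13). IL3-OHT 96h and 144h stood apart across the genome, with 17.5% and 15.4% of all genes called in this comparison beside 1.6% at IL3-OHT 48h, so the calls in *Nfkbid* and *Nfkbia* stand among many others.

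**Figure D5:**
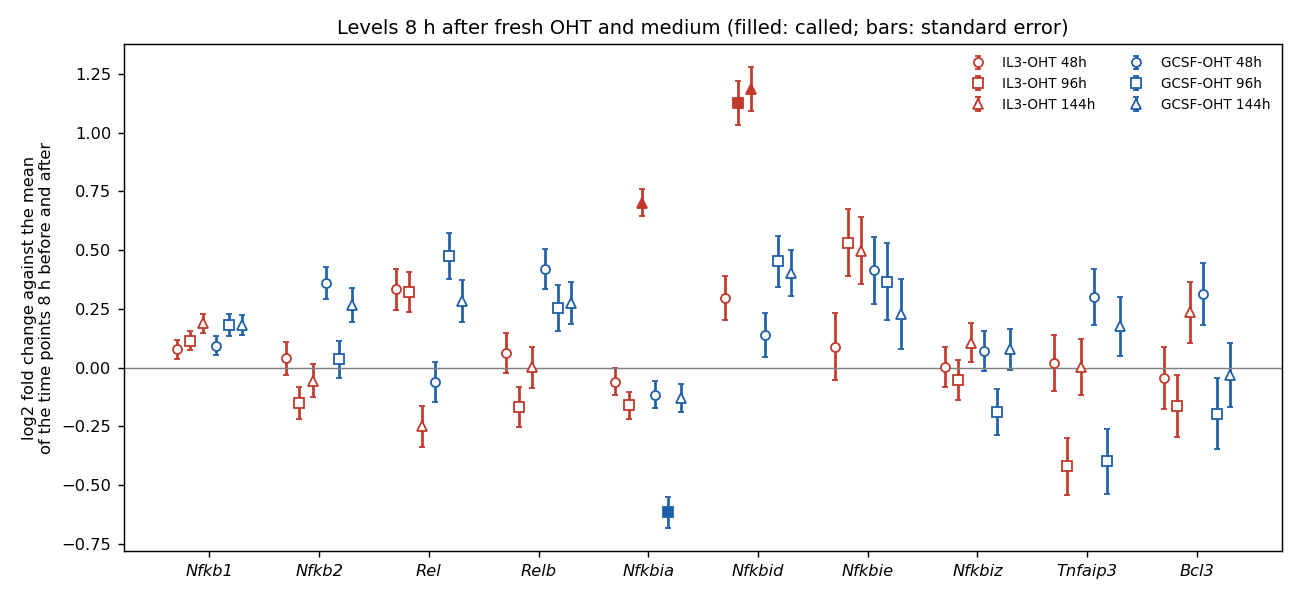
Log2 difference of each gene 8 h after fresh OHT and medium against the mean of the time points 8 h before and 8 h after (red for IL3, blue for GCSF; circles, squares and triangles for 48h, 96h and 144h; bars are standard errors; filled symbols were called). The filled symbols are *Nfkbid* and *Nfkbia*.

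The patterns of the 10 genes were compared by Pearson's r of log2 means over all 56 combinations of condition and time point, which share the condition, the plate of each time point and the slow trend of each course, so r is a description. *Rel* and *Bcl3* were alike (0.87), as were *Nfkb2* and *Relb* (0.85), *Nfkbie* and *Bcl3* (0.84), and *Rel* and *Nfkbie* (0.83). Within one condition the first of these fell to 0.17 in IL3 and 0.68 in GCSF, that of *Nfkbie* and *Bcl3* was 0.34 in IL3 and 0.85 in GCSF, and that of *Rel* and *Nfkbie* 0.39 and 0.83, while *Nfkb2* and *Relb* kept 0.74 in IL3 and 0.87 in GCSF. *Nfkbia* and *Nfkbiz* showed the reverse, 0.57 over both conditions and 0.78 and 0.85 within IL3 and GCSF. *Nfkbia* and *Nfkb1* had the lowest value of all pairs over both conditions, -0.67, and -0.40 in IL3 and -0.54 in GCSF. Within IL3 the lowest was that of *Nfkbie* and *Nfkbiz*, -0.84.

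Outside the 10 genes, those with the most similar pattern were, with r, *Zc3h12a* (0.92), *Gpat3* (0.90) and *Cxcr5* (0.89) for *Nfkbia*, *Pik3cd* (0.94), *Trim30b* (0.92) and *Evi2b* (0.92) for *Nfkbie*, *Plekha2* (0.93), *Ccng2* (0.93) and *Ppp1r3b* (0.93) for *Tnfaip3* and *Ifnlr1* (0.95), *Stat3* (0.95) and *Chil1* (0.95) for *Bcl3*. For *Nfkbiz* they were *Agap1* (0.87), *Zyx* (0.87) and *Inhba* (0.87), and for *Nfkbid* *Atic* (0.85), *Lipt2* (0.84) and *Dnajc11* (0.84). Among the subunits they were *Derl2* (0.92), *Baz1b* (0.91) and *Gas7* (0.91) for *Rel*, *Dapp1* (0.93), *Msrb2* (0.93) and *Srrt* (0.93) for *Nfkb1*, *Gcc1* (0.86), *Slc39a4* (0.86) and *Rnf44* (0.84) for *Relb* and *Map3k11* (0.78), *Slc39a4* (0.75) and *Egln2* (0.74) for *Nfkb2*. They were drawn from 12299 genes averaging at least 10 normalized counts, and 22 of the 30 remained without IL3-OHT 96h and 144h. *Zc3h12a*, the nearest to *Nfkbia*, fell in the pre-treatment from 2848 ± 199.6 to 1111 ± 190.9 (-1.37, SE 0.11, adjusted p = 1.72e-22) and *Stat3*, near *Bcl3*, encodes a transcription factor that GCSF receptor signaling activates.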

How the data were processed

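PolyA RNA of 165 bulk libraries (56 combinations of condition and time point, 53 with 3 libraries and 3 with 2) was sequenced by the authors as paired reads, aligned with Salmon to GRCm38 (the processing notes also name mm10), and the deposited signal is the gene count divided by a DESeq2 size factor per library, named normalized count here. Versions and gene annotation are not given in the sources used here. Every deposited value was a whole multiple of that of 1 read (100% within 0.1 read), and whole reads were recovered from it for edgeR 4.0.16 and DESeq2 1.42.0, used as alternatives. edgeR's quasi-likelihood test called 581 genes in IL3 and 996 in GCSF after 1 h, and limma 770 and 1053. Replicates differed by more than sampling noise (chi-square per gene 2.25 to 68.5 over 162 pairs).

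limma 3.58.1 (R 4.3.3) was fitted to log2(normalized count + 1) with 1 mean per condition and time point, with a trend in the prior and Benjamini-Hochberg adjustment over 17414 genes. As by the authors, IL3-OHT 96h and 144h took no part, except in the comparisons after fresh OHT (17439 genes). The log2(value + 1) scale understates changes of low genes. Intervals are 95% from the t distribution of the fit. Scripts were tested on simulated data. Of the pathway lists, at most 4 called genes per list and comparison, those with the largest absolute change, could be named, and 3 neighbors in pattern per gene. The gene names, the members and the lists were chosen with earlier results of these data known. Alternatives covered the pseudocount (0.5 and 5), the filter (none, or a mean of at least 10), upper-quartile scaling, each replicate left out, a replicate block, only the groups compared, and both count tools.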

Additional observations from a re-analysis of the deposited data

Results flagged for a closer look

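Each of the following genes had an effect of OHT that differed between GCSF and IL3 by the interaction term of limma, each with the value as GCSF minus IL3 on the log2 scale. At 1h the difference was 1.03 for *Nfkbia* and 1.19 for *Nfkbie*. At 168h it was 2.42 for *Nfkbie*, 2.28 for *Nfkbiz*, 1.83 for *Nfkbia*, 1.21 for *Bcl3*, 1.07 for *Relb*, 0.76 for *Rel* and 0.69 for *Nfkb2*. The effects are measured from starts that differ. For *Nfkbia* the start in GCSF was lower and the levels at 168h differed by -0.01, while *Nfkbiz* also started lower in GCSF and was higher there at 168h (722 in GCSF and 453 in IL3). For *Relb* and *Nfkb2* neither effect alone was called at 168h, nor was the difference between the conditions there. All 9 values use the undifferentiated and GCSF 0h libraries.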

How the results depend on the processing

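Of 1080 values of single genes in the comparisons above under 12 alternatives, 1068 kept their direction and their side of the threshold, 4 lost a call, 8 gained one and 0 reversed. The counts of called genes moved by over 1.5 times in 1 case, the consecutive time points in IL3, where the 18 calls became 28 without replicate 3 (16 to 28 over the replicates left out, and 17 of the 28 were shared with the 18). The cause was not tested. Over the replicates left out, the calls between consecutive time points in GCSF ranged from 19 to 21 beside 17, and those over the time course in GCSF from 7 to 8. With IL3-OHT 96h and 144h kept, IL3 has 27 consecutive comparisons in place of 25, and 24453 differences of all genes were called beside 15889, and 21 of the 10 genes beside 18, with 14 shared. With the replicate number as a block the calls of the 10 genes were the same ones in each comparison, 18 in IL3 and 17 in GCSF between consecutive time points. The numbers only name the wells: deviations of libraries with the same number correlated by 3.08e-04 on average and those with different numbers by -1.53e-04, with -0.14 to 0.03 between the groups compared. Of the 30 neighbors in pattern, 15 were shared when r was computed without log2. Scaling by the upper quartile moved the median of all genes by less than 0.1. The lowest count of the 10 genes, 26 reads, limits the precision of *Nfkbie* most.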
